A study of Arabidopsis thaliana with 3 samples.

Results

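Divergent gene pairs are neighbouring genes that point away from each other, so that the stretch between their start sites serves as the upstream region of both. The regions described here were the gaps of 50 to 2000 bp between a protein-coding gene on the minus strand and the next protein-coding gene on the plus strand, with no other annotated gene between them. Of 6049 divergent neighbours on chromosomes 1 to 5 of Arabidopsis thaliana, 3605 had a gap in this range and 3253 of those gaps held no other gene. These 3253 divergent gaps are described among 14175 gaps selected by the same length and content, of which 2381 lay between convergent genes and 8541 between genes on the same strand.

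DNA methylation was measured in mature leaves of Col-0 plants by sequencing bisulfite-converted DNA, in which an unmethylated cytosine is read as T and a methylated cytosine as C. The series holds 1 wild-type (WT) library and 2 libraries of h3.3kd plants, in which the histone variant H3.3 is reduced. Per the study's methods, h3.3kd plants carry T-DNA insertions in the H3.3 genes HTR4 and HTR8 and an artificial microRNA against the remaining gene HTR5, expressed from the HTR5 promoter, and the lines sequenced were h3.3kd-2 and h3.3kd-3. Both lines thus carry the insertions and the transgene, the WT carries neither, and effects of the insertions, the transgene and H3.3 loss cannot be told apart. The labels do not say which h3.3kd replicate is which line, nor how many plants were pooled. Transcripts were not measured in these libraries, and the loss of H3.3 could not be checked from them.

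Plant cytosines are methylated in 3 sequence contexts. CG methylation is copied at each cell division by MET1, CHG methylation (H is A, T or C) is maintained by CMT3 in a loop with histone H3 lysine 9 methylation, and CHH methylation is renewed by CMT2 and by the RNA-directed pathway. Promoters of active plant genes usually lack all 3, methylation in CG alone is typical of the bodies of expressed genes, and methylation in all contexts marks transposons and repeats. H3.3 is the histone H3 placed outside replication, mainly over transcribed genes.

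A few sequences show what the changes described below look like on the DNA. They are the 300 bp with the most CG change in the 3 gaps with the largest called CG drops and in 2 of the 3 gaps with the largest called rises, the whole of the third, and the whole gap upstream of HTR5. The plus strand of the reference is given 5′ to 3′. Capitals mark the CG dinucleotides whose level, over both strands, differed from WT by 20 points or more, in the same direction, in each h3.3kd library, with a minimum of 10 calls per library. In the HTR5 gap, where no CG changed that much, capitals mark every CG.
AT5G27330-AT5G27340, chr5:9635529-9635828: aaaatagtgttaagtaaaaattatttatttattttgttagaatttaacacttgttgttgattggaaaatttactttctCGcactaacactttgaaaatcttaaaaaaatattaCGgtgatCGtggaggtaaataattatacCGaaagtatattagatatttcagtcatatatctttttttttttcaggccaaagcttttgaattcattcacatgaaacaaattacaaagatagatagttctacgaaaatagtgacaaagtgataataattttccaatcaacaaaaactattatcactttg
AT1G60610-AT1G60620, chr1:22330578-22330877: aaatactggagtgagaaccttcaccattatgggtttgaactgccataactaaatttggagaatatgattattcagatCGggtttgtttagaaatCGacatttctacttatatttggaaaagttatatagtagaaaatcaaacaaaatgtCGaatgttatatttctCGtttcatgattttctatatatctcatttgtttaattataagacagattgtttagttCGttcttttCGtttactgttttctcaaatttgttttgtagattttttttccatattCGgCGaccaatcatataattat
AT5G44740-AT5G44750, chr5:18052063-18052362: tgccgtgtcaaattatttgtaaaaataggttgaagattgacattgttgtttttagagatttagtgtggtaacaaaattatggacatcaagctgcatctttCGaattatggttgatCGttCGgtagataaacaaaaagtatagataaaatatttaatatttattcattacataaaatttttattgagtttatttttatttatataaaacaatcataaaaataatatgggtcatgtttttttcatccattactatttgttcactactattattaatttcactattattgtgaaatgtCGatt
AT1G75945-AT1G75950, chr1:28515941-28516240: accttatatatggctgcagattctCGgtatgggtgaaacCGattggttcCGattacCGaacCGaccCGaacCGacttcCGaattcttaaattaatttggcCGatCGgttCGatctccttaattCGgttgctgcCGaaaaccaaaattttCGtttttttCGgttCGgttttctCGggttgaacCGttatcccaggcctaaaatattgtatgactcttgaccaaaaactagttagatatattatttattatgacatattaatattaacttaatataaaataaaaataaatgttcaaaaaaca
AT1G03800-AT1G03810, chr1:958433-958732: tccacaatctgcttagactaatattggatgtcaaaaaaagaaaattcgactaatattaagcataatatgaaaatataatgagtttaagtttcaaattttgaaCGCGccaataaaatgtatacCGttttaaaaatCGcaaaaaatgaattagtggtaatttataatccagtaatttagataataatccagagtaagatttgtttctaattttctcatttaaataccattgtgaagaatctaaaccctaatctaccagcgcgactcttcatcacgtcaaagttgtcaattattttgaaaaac
AT4G05200-AT4G05210, chr4:2682385-2682612: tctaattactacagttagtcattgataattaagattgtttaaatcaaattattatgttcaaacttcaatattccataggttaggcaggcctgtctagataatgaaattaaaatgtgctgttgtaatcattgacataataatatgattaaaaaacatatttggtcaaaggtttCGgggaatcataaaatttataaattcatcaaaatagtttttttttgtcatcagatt
AT4G40040-AT4G40042, the HTR5 gap, chr4:18558946-18559096: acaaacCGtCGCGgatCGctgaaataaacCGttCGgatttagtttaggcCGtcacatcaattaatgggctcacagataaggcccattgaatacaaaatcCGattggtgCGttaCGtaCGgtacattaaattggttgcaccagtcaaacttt

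These stretches differ in how many CG dinucleotides they hold and how many of them moved. In the SKP1 gap (AT1G75945-AT1G75950) all 18 CG dinucleotides of the printed 300 bp rose, and the pooled level of those bases was 1.47% in WT, 91.0% in h3.3kd replicate 1 and 93.1% in replicate 2. In the gap upstream of RPAC43 (AT1G60610-AT1G60620) all 8 fell, from 74.3% in WT to 0.46% and 0.0% in the h3.3kd libraries. In contrast, the printed stretch of AT4G05200-AT4G05210 holds 1 CG, and its rise rests on that CG alone.

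Divergent gaps were longer than the other gaps and, like them, AT-rich. Their median length was 683 bp, with quartiles of 269 and 1184 bp, against a median of 360 bp between convergent genes and 529 bp between same-strand genes. GC content was 30.1% over all divergent gaps, 31.2% over convergent gaps and 30.2% over same-strand gaps. Divergent gaps held 1.92 CG dinucleotides per 100 bp, which is 0.85 of the number their C and G content would give. The same ratio was 0.72 in convergent and 0.80 in same-strand gaps. Within the central 300 bp of the 2375 divergent gaps that were at least 300 bp long, the letters TATAAA, the core of a TATA box, occurred on either strand in 51.9%, against 51.3% of all gaps of that length. GGCCCA, the site II-like element found upstream of many ribosomal protein and growth genes, occurred in 11.4% of divergent windows, 5.79% of convergent windows and 7.12% of same-strand windows (8.01% of all). CACGTG, the G-box bound by light-signalling bZIP and bHLH factors, occurred in 4.76% (4.16% of all), and AAACCCTA, the telo-box, in 3.03% (3.11% of all). These shares are a description of letters, not of bound sites.

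The libraries were of similar depth, with 839704204 calls in WT and 822515332 and 842326850 calls in the h3.3kd libraries, which is 19.2 to 19.7 calls per cytosine. Divergent gaps were read more deeply than the genome average, by 1.19 times in WT and by 1.10 and 1.15 times in the h3.3kd libraries. Levels are given as the share of calls that read C, with the SD over the 2 h3.3kd libraries. Their 95% Wilson intervals cover counting error only. These intervals and the tests on read counts take every call as independent. Calls at nearby cytosines can come from the same read, so the intervals and FDRs can be too narrow. With 1 WT library no exact permutation test of the conditions can pass 0.05 (the smallest p for 1 against 2 libraries is 0.33), so differences are set against the gap between the h3.3kd libraries, and tests on read counts compare libraries, not conditions.

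Most divergent gaps had almost no methylation in any library. In WT, 2420 of the 3046 gaps that had 50 or more CG calls per library (79.4%) had a CG level under 2%, and the median was 0.635%. The share under 2% was 78.7% in convergent and 80.1% in same-strand gaps. At the other end, 410 divergent gaps were at 20% or more and 187 at 50% or more. Grouped by their level over all 3 libraries, 2410 gaps (74.1%) were unmethylated, 92 (2.83%) had CG methylation of at least 10% with CHG under 5%, and 429 (13.2%) had CHG methylation of at least 5%. The remaining 322 gaps had under 50 CG or CHG calls in a library, and their median length was 114 bp. These groups were drawn with the h3.3kd libraries included and serve as a description. The 429 CHG-methylated gaps, with a median length of 1221 bp, carried 45.8% CG, 23.7% CHG and 5.51% CHH methylation in WT, the pattern of transposon and repeat sequence, whereas the unmethylated gaps were at 0.78% CG, 0.74% CHG and 0.82% CHH.

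Methylation in divergent gaps was higher away from the start sites and in longer gaps. In WT, pooled CG methylation was 4.16% in the first 100 bp next to a gene start, 12.4% at 200 to 300 bp and 21.9% at 700 to 800 bp. At 900 to 1000 bp it was 17.6%, from 288 stretches of gap against 6506 in the first bin. On the gene side it was 4.35% in the first 100 bp, 2.69% at 300 to 400 bp and 14.3% at 900 to 1000 bp, so that the start sites lay in a trough that reached into both the gap and the gene. The 775 gaps of 50 to 250 bp were at 1.91% CG in WT and the 1072 gaps longer than 1000 bp at 14.4%. Bins far from a start come from long gaps only, so distance and length were not separated. The other orientations also had more CG methylation away from the gene ends. In WT, convergent gaps were at 8.23% in the first 100 bp and 17.5% at 700 to 800 bp, and same-strand gaps at 5.17% and 20.2%. The 674 CG dinucleotides inside a G-box, found in 529 gaps, were at 3.14% in WT, against 11.8% for the other CG of all 3253 gaps. The other CG were not matched to those of the G-box by gap or by distance from the start sites.

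**Figure D1:**
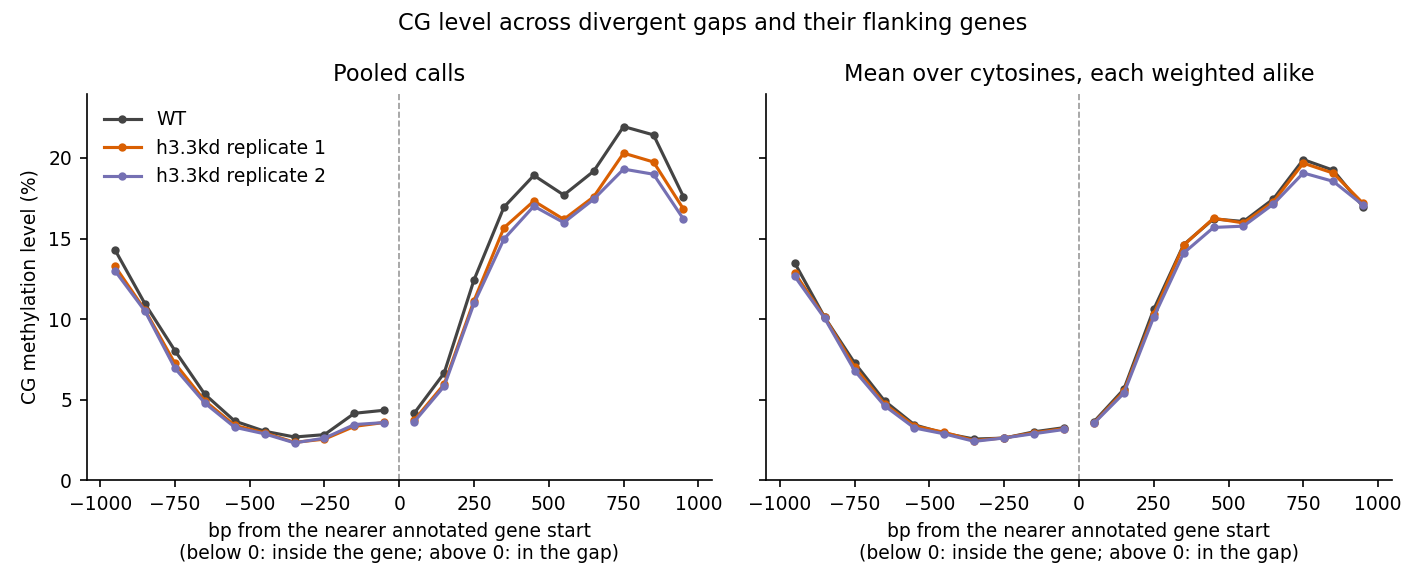
CG level (%, y axis) by distance in bp from the nearer annotated gene start (x axis, 100-bp bins, below 0 inside the flanking genes and above 0 in the divergent gaps), with 1 line per library, as the share of pooled calls (left) and as the mean over cytosines weighted alike (right). WT lies above the h3.3kd lines in the pooled calls of the gaps, 21.9% against 20.3% and 19.3% at 700 to 800 bp, and close to them when cytosines are weighted alike, 19.9% against 19.7% and 19.1%.

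Over all divergent gaps, the pooled CG level was lower in both h3.3kd libraries, but most of that difference was not seen when every cytosine was given the same weight. The pooled level was 11.7% in WT (95% Wilson interval 11.6% to 11.7%), 10.4% in h3.3kd replicate 1 and 10.2% in replicate 2, a mean of 10.3% ± 0.12 (SD, n = 2). This is -1.36 points from WT, with -0.17 points between the h3.3kd libraries. The mean over the 94059 CG cytosines read at least 4 times in each library was 9.74% in WT, 9.64% in replicate 1 and 9.43% in replicate 2. That is a difference of -0.21 points, the same size as the -0.21 points between the h3.3kd libraries.

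Pooled calls weight a cytosine by its depth, and the depth of methylated cytosines differed between the libraries. CG cytosines with a mean level of 50% or more were read 28.9 times in WT, against 23.4 times for the other CG of divergent gaps. In the h3.3kd libraries the same cytosines were read 23.9 and 25.1 times, against 21.9 and 22.9 times for the others. Each divergent gap weighted alike, the mean CG difference was -0.40 points, and the median difference over the 3046 gaps was 0.

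CHG and CHH levels were also lower in pooled calls of both h3.3kd libraries. CHG methylation of divergent gaps was 5.49% in WT, 4.98% in replicate 1 and 4.75% in replicate 2, a difference of -0.63 points in pooled calls, and -0.15 points with cytosines weighted alike, against -0.19 points between the h3.3kd libraries. CHH methylation was 1.81% in WT, 1.73% in replicate 1 and 1.64% in replicate 2, a difference of -0.12 points, and -0.027 points with cytosines weighted alike. For CHH the mean over cytosines of WT (1.69%) lay between those of the h3.3kd libraries (1.74% and 1.58%).

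The flanking genes differed from the gaps in this respect. Over the whole length of the 6506 genes beside divergent gaps, CG methylation in pooled calls was 17.1% for WT, and for h3.3kd it was 15.2% ± 0.30 (SD, n = 2), and the difference of -1.74 points with cytosines weighted alike was close to the pooled -1.95 points. There the CG cytosines at 50% or more were read 19.7 times in WT and 20.4 to 20.5 times in h3.3kd. In the first 500 bp of the same genes CG methylation was 3.40% in WT and 2.95% in h3.3kd in pooled calls, and the difference was -0.055 points with cytosines weighted alike, against -0.050 points between the h3.3kd libraries. Thus under equal weights the h3.3kd libraries stood further from WT than from each other over whole flanking genes, and about as far from WT as from each other in the gaps and in the starts of the genes. The difference between genes and gaps was not tested.

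**Figure D2:**
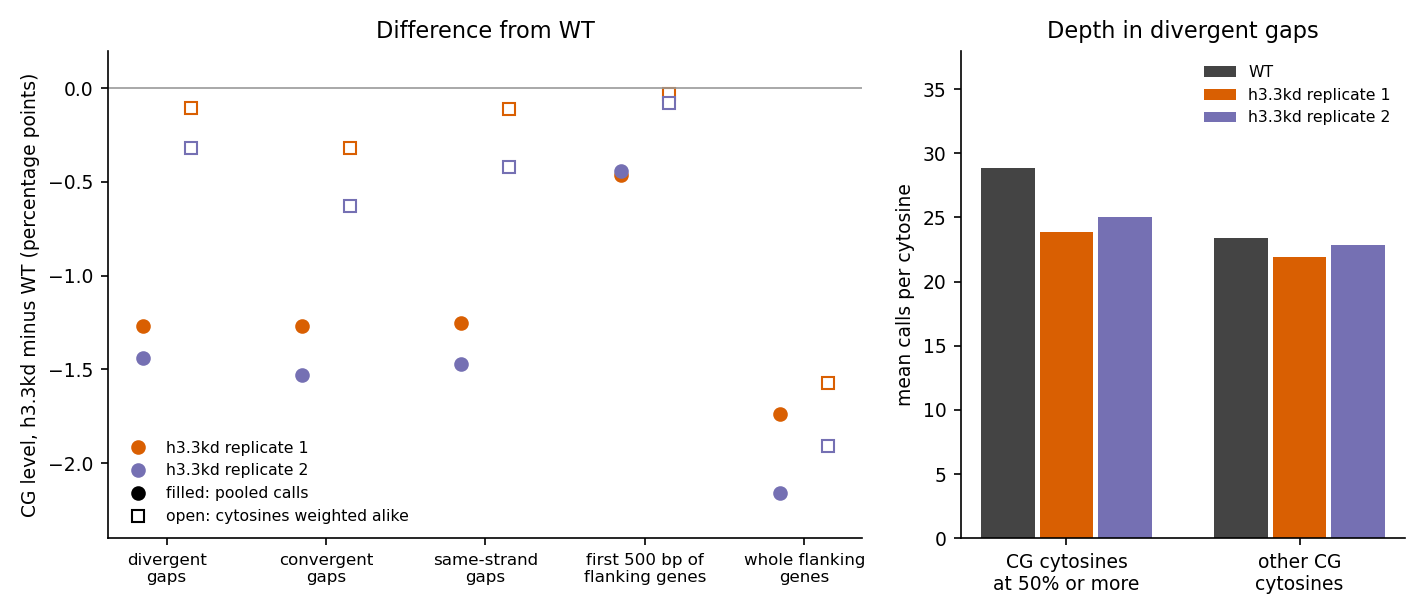
Left, CG level of each h3.3kd library minus WT (percentage points, y axis) over gaps of each orientation and over the genes beside divergent gaps (x axis), from pooled calls (filled) and with cytosines weighted alike (open). Right, mean calls per CG cytosine (y axis) of divergent gaps in each library, for cytosines with a mean level of at least 50% and for the others. The pooled differences of divergent gaps, -1.36 points on average, shrink to -0.21 with equal weights, while those of whole genes go from -1.95 to -1.74.

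Gaps of the other orientations gave pooled CG differences near that of divergent gaps, and smaller differences in CHG. The pooled CG difference was -1.40 points between convergent genes and -1.36 points between same-strand genes, and -0.47 and -0.27 points with cytosines weighted alike, where the h3.3kd libraries differed from each other by -0.31 points in both. In CHG the pooled difference was -0.35 points in convergent and -0.40 points in same-strand gaps, against -0.63 points in divergent gaps. With cytosines weighted alike the values were -0.036, -0.016 and -0.15 points. These differences between orientations were not tested.

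Single gaps with large changes in both directions were present among the members. A gap was called when Fisher's exact test on its C and T counts, adjusted over all gaps of the 3 orientations by Benjamini-Hochberg, was below an FDR of 0.01 for each h3.3kd library against WT and the level differed by at least 10 points in the same direction in both. Of 3046 divergent gaps tested in CG, 30 were lower (0.985%) and 12 higher (0.394%) in both h3.3kd libraries, against 1.28% lower and 0.42% higher over all 12633 tested gaps. The share of lower gaps was 2.13% between convergent genes and 1.19% between same-strand genes. The shares of divergent gaps called against WT in both libraries were thus near the background of all gaps. Between the h3.3kd libraries themselves, the same FDR and 10-point thresholds had to be passed in 1 comparison in place of 2. There 17 divergent gaps were lower (0.558%) and 8 higher (0.263%) in replicate 2, against 0.799% and 0.261% of all tested gaps. With 1 comparison against WT, 39 divergent gaps were lower (1.28%) and 26 higher (0.854%) in replicate 1. In replicate 2, 60 were lower (1.97%) and 20 higher (0.657%). The shares over all gaps were not counted for a single comparison against WT, so these counts cannot be set against a background.

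limma called none of the divergent gaps in CG (0 lower and 0 higher at an FDR of 0.05). Its spread between libraries came from the 2 h3.3kd libraries alone, because WT has 1 library. The fit had 1 residual degree of freedom. The called gaps below are therefore differences between these libraries, and differences between the plant lines that do not come from H3.3 cannot be told apart from them. With the 10-point rule also applied to the mean over cytosines, an alternative added after seeing the data, 22 of the 30 lower and 11 of the 12 higher gaps remained. AT4G24330-AT4G24340 no longer had the same direction in both libraries (means over cytosines of 52.7% in WT, 53.0% in replicate 1 and 51.6% in replicate 2).

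**Figure D3:**
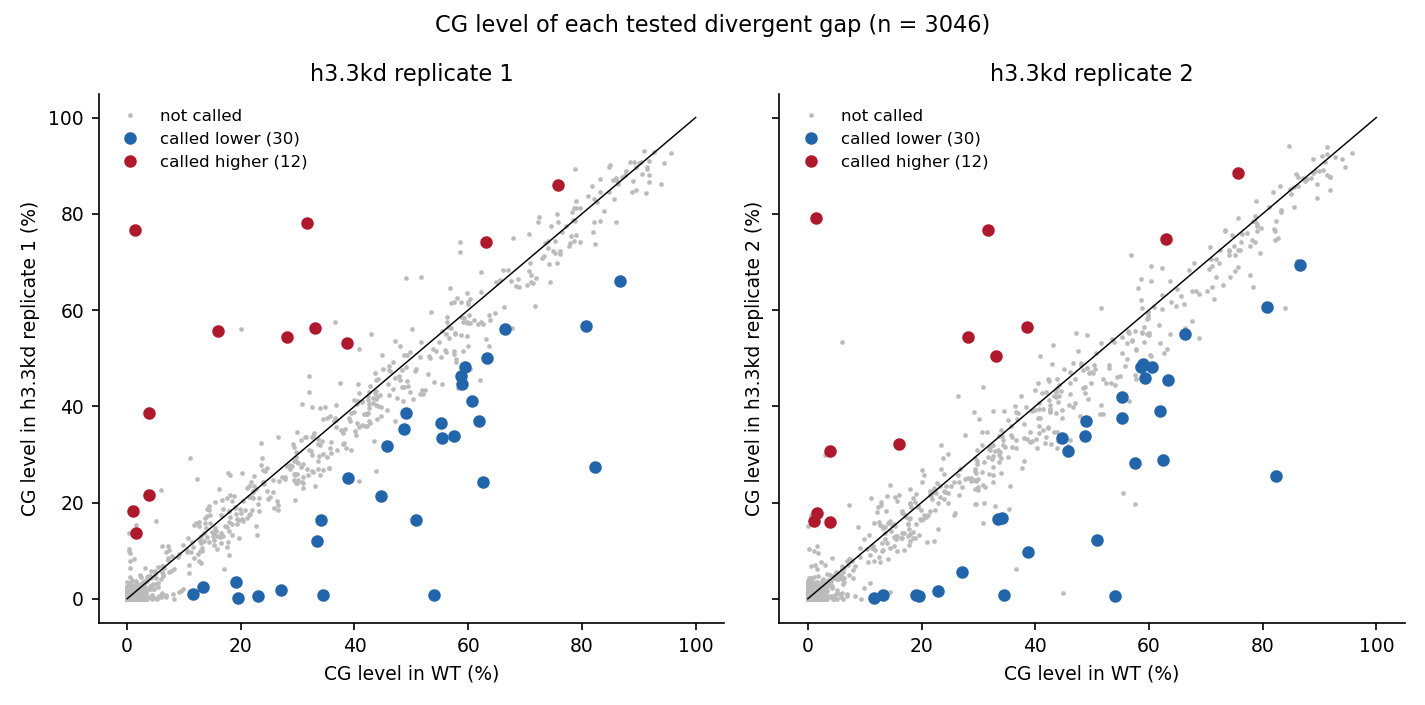
CG level (%) of each of the 3046 tested divergent gaps in WT (x axis) and in each h3.3kd library (y axis, 1 panel per library), with called gaps in blue (30 lower) and red (12 higher) and the line of equal levels. Most gaps sit near 0, and the called gaps spread over WT levels from 1.09% to 86.6%.

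The 30 gaps called lower in CG had WT levels between 11.6% and 86.6% (median 52.4%) and a median of 29.2% in h3.3kd. In 7 of them both h3.3kd libraries were under 5%. CHG methylation was called lower in 9 of the 30 and higher in 1, AT2G14860-AT2G14870, where CG was 45.7% in WT, 31.8% in replicate 1 and 30.8% in replicate 2 while CHG was 13.1%, 29.2% and 28.0%. Of the 30 gaps, 13 lay on chromosome 5 (1.78% of the 729 tested there, against 0.613% to 1.13% on the other chromosomes). The share of all gaps called on each chromosome was not counted, so this cannot be read as a trait of divergent gaps. HTR8, whose insertion the h3.3kd lines carry, lies on chromosome 5, and the part of segments linked to it was not tested. The h3.3kd libraries differed from each other by at most 15.5 points in these gaps, and 2 of the 30 were also called between them. The threshold fell between AT4G37200-AT4G37210, called with 58.9% in WT and 44.6% and 48.7% in h3.3kd (-12.3 points, and -6.87 with cytosines weighted alike), and AT4G13350-AT4G13360, not called with 60.3% in WT and 47.8% and 50.4%.

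The largest drop was in the 710-bp gap AT5G27330-AT5G27340 on chromosome 5, between a gene for a prefoldin chaperone subunit family protein and an uncharacterized gene. CG was 82.4% in WT, 27.3% in replicate 1 and 25.5% in replicate 2, from 205 to 278 calls. The WT interval, 77.5% to 86.4%, lay above both h3.3kd intervals, which ended at 33.8%. The gap holds 6 CG dinucleotides. The 4 at 433 to 496 bp from its left end went from between 78.4% and 82.6% in WT to at most 3.12% in either h3.3kd library, and the 2 nearest the uncharacterized gene were at 88.9% and 84.1% in WT and between 68.4% and 92.3% in h3.3kd. CHG was under 3.4% in all libraries. CG methylation of the uncharacterized gene itself was 91.6% in WT and 89.2% and 92.3% in h3.3kd.

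The gap AT1G60610-AT1G60620 (575 bp, chromosome 1) lies upstream of RPAC43, a subunit of RNA polymerase I, and of a gene for an SBP (S-ribonuclease binding protein) family protein. All 3 contexts were methylated there in WT and none in h3.3kd. CG was 54.0% in WT, 0.77% in replicate 1 and 0.49% in replicate 2 (FDR 1.56e-132 and 3.74e-130, Fisher's exact test). CHG was 29.4%, 0.46% and 0.49%, and CHH was 8.47%, 0.73% and 0.81%. Of its 12 CG dinucleotides, the 8 at 337 to 541 bp from the left end, on the RPAC43 side, were between 58.2% and 88.0% in WT and at most 1.85% in h3.3kd. The other 4 were at most 4.84% in every library.

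The gap AT5G44740-AT5G44750 (710 bp, chromosome 5) separates POLH and REV1, which both encode DNA polymerases that copy past damaged bases. CG was 50.8% in WT, 16.4% in replicate 1 and 12.3% in replicate 2, CHG was 18.7%, 1.75% and 2.42%, and CHH was 8.75%, 3.02% and 2.21%. In each context both h3.3kd libraries were below WT. The 4 CG dinucleotides at 267 to 462 bp changed, and the first 500 bp of both genes were at or below 1.003% CG in every library.

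In AT5G11770-AT5G11780 (803 bp, chromosome 5), between the gene of the 20 kDa subunit of NADH-ubiquinone oxidoreductase, part of mitochondrial complex I, and a gene for an SNF2 domain protein, CG, CHG and CHH methylation were all lower in both h3.3kd libraries. CHG was 38.9% in WT, 6.65% in replicate 1 and 5.82% in replicate 2, the largest called CHG drop among divergent gaps. CHH was 7.16%, 1.04% and 0.70%, and CG was 57.5%, 33.9% and 28.1%. With cytosines weighted alike its CG difference was -16.1 points, against -26.5 in pooled calls. AT5G17620-AT5G17630 (714 bp, chromosome 5) lies between AUG7, a subunit of the augmin complex that nucleates microtubules on microtubules, and a nucleotide/sugar transporter gene. Its CG level was 34.5% in WT, 0.70% in replicate 1 and 0.79% in replicate 2. There the 8 changed CG dinucleotides lay at 206 to 328 bp, and CHG was 7.10% in WT and 0.78% and 1.86% in h3.3kd.

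AT4G08310-AT4G08320 (312 bp, chromosome 4), between a DNA ligase gene and TPR8, which encodes a tetratricopeptide repeat protein, was called lower in CG and not in CHG. CG was 62.5% in WT, 24.2% in replicate 1 and 28.7% in replicate 2, with 12 of 15 CG dinucleotides lower by at least 20 points. CHG was 27.6%, 27.5% and 33.8%, and CHH was 17.8%, 17.1% and 22.0%. The first 500 bp of the ligase gene were at 24.4% CG in WT and at 12.2% and 14.2% in h3.3kd. The remaining 2 of the 8 largest drops were AT5G63250-AT5G63260, with 61.9% in WT and 36.9% and 39.1% in h3.3kd (-23.9 points pooled, and -15.6 with cytosines weighted alike), and AT5G38510-AT5G38520, upstream of a rhomboid-related protease gene, with 27.2% in WT and 1.80% and 5.47% in h3.3kd.

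The 12 gaps called higher in CG had WT levels between 1.09% and 75.8% (median 22.1%), and 5 of them were under 5% in WT. CHG was called higher in 2 of the 12 and lower in none. The h3.3kd libraries differed most in AT5G19630-AT5G19633, with 16.0% in WT, 55.7% in replicate 1 and 32.2% in replicate 2, the called rise that was also called between them. Its rise was 27.9 points over both libraries and 16.2 points without replicate 1. The threshold fell between AT1G27870-AT1G27880, called with 75.8% in WT and 85.9% and 88.4% in h3.3kd, and AT5G54410-AT5G54420, not called with 11.1% in WT and 29.2% and 21.0%.

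The largest rise lay upstream of SKP1, which encodes a core subunit of SCF ubiquitin ligases, in the 602-bp gap AT1G75945-AT1G75950 on chromosome 1. CG was 1.46% in WT, 76.7% in replicate 1 and 79.2% in replicate 2 (FDR 6.43e-262 and 8.27e-295, Fisher's exact test). CHG was 0.55%, 22.6% and 27.1%, and CHH was 2.0%, 4.78% and 5.91%. All 3 contexts were thus higher in both h3.3kd libraries. The 18 CG dinucleotides at 49 to 207 bp from the left end were at most 5.26% in WT and between 76.1% and 100% in h3.3kd, and the 3 at 373 to 482 bp, nearer SKP1, were at most 4.17% in every library. The uncharacterized gene AT1G75945 on the left was at 1.35% CG in WT and 85.0% and 79.8% in h3.3kd, while the SKP1 gene was at 0.74% in WT and 0.39% and 0.66% in h3.3kd. Neither gene was tested.

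The gap AT1G03800-AT1G03810 (375 bp, chromosome 1) lies beside ERF10, a gene of the ethylene response factor family. CG was 31.7% in WT, 78.0% in replicate 1 and 76.7% in replicate 2. Its CG dinucleotides fell into 3 stretches. The 1 nearest ERF10 was at most 2.13% in every library, the 4 at 152 to 184 bp were at most 3.64% in WT and between 72.9% and 93.3% in h3.3kd, and the 4 at 306 to 369 bp, next to AT1G03810, were between 66.0% and 97.0% in WT and between 79.1% and 100% in h3.3kd. CG of AT1G03810 was high in all libraries, with 94.0%, 93.0% and 92.8% in its first 500 bp, and the methylated stretch of the gap began at 152 bp from its left end in h3.3kd and at 306 bp in WT.

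**Figure D4:**
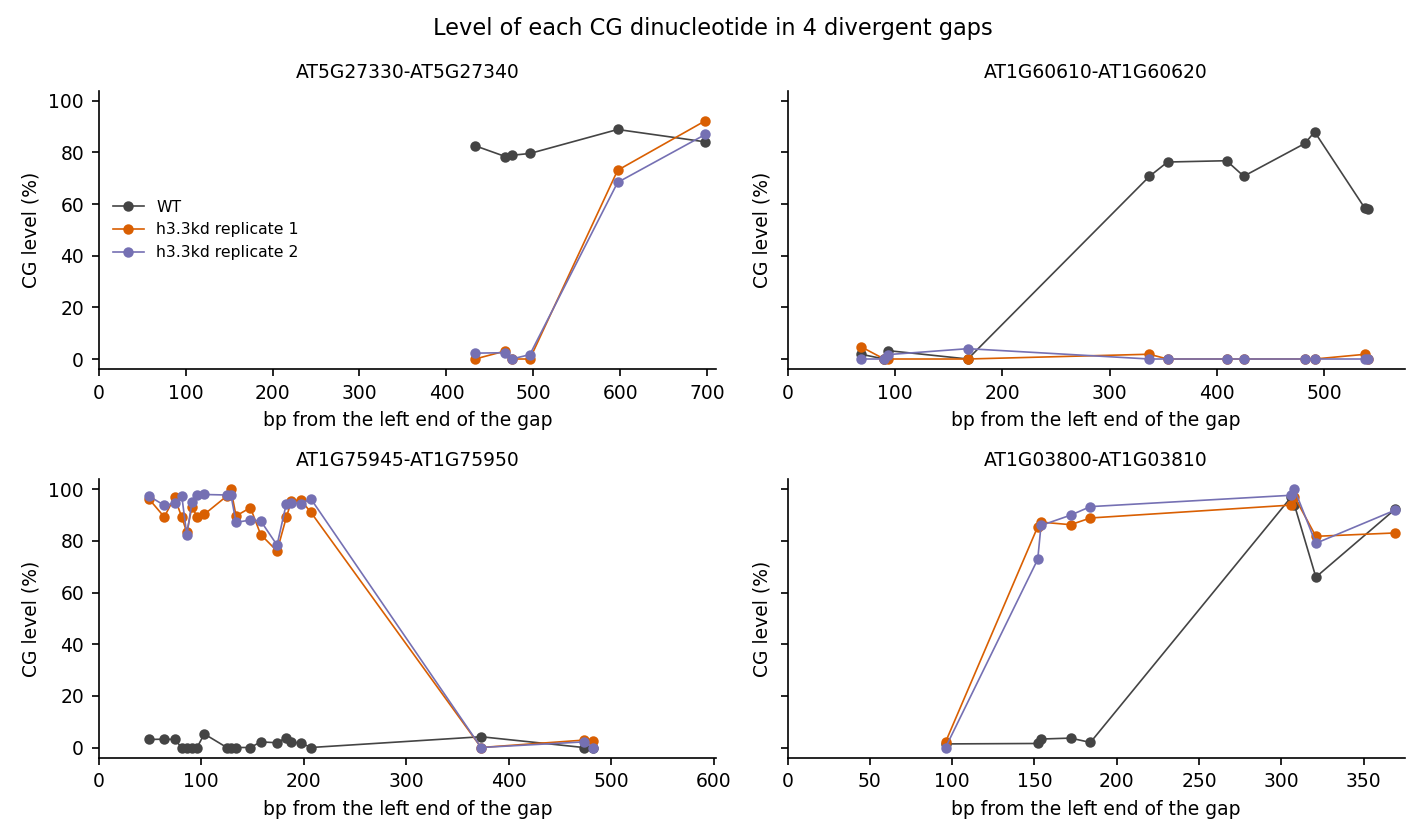
Level (%, y axis) of each CG dinucleotide with at least 10 calls in every library, both strands summed, by distance in bp from the left end of the gap (x axis), in the 2 divergent gaps with the largest called drops (top) and the 2 with the largest called rises (bottom). Points are single CG dinucleotides and lines join those of a library. In AT1G75945-AT1G75950 the 18 CG at 49 to 207 bp are near 0 in WT and above 76% in both h3.3kd libraries, and the 3 further CG are near 0 in all.

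In AT4G12790-AT4G12800 (1678 bp, chromosome 4), upstream of PSAL, a subunit of photosystem I, CG and CHG were both called higher. CG was 38.6% in WT, 53.2% in replicate 1 and 56.5% in replicate 2, and CHG was 13.4%, 29.0% and 34.4%. The gap AT1G45332-AT1G45403, beside a gene for a translation elongation factor of the EFG/EF2 type, was 1.09% in WT and 18.2% and 16.2% in h3.3kd in CG, with CHG at most 1.27% in every library. The rest of the 8 largest rises were AT4G05200-AT4G05210, with 3.9% in WT and 38.7% and 30.8% in h3.3kd, AT1G62200-AT1G62210, with 28.1% and 54.4% in both, and AT4G36500-AT4G36510, with 33.0%, 56.3% and 50.5%. In AT4G05200-AT4G05210, beside the receptor kinase gene CRK25, the level comes from a single CG with 75 to 78 calls. Outside the rule for named gaps, and chosen after its values were seen, the gap between the HSP90 genes Hsp81.4 and HSP81-3 (AT5G56000-AT5G56010) was called higher, with 1.53% CG in WT, 13.7% in replicate 1 and 17.8% in replicate 2.

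**Figure D5:**
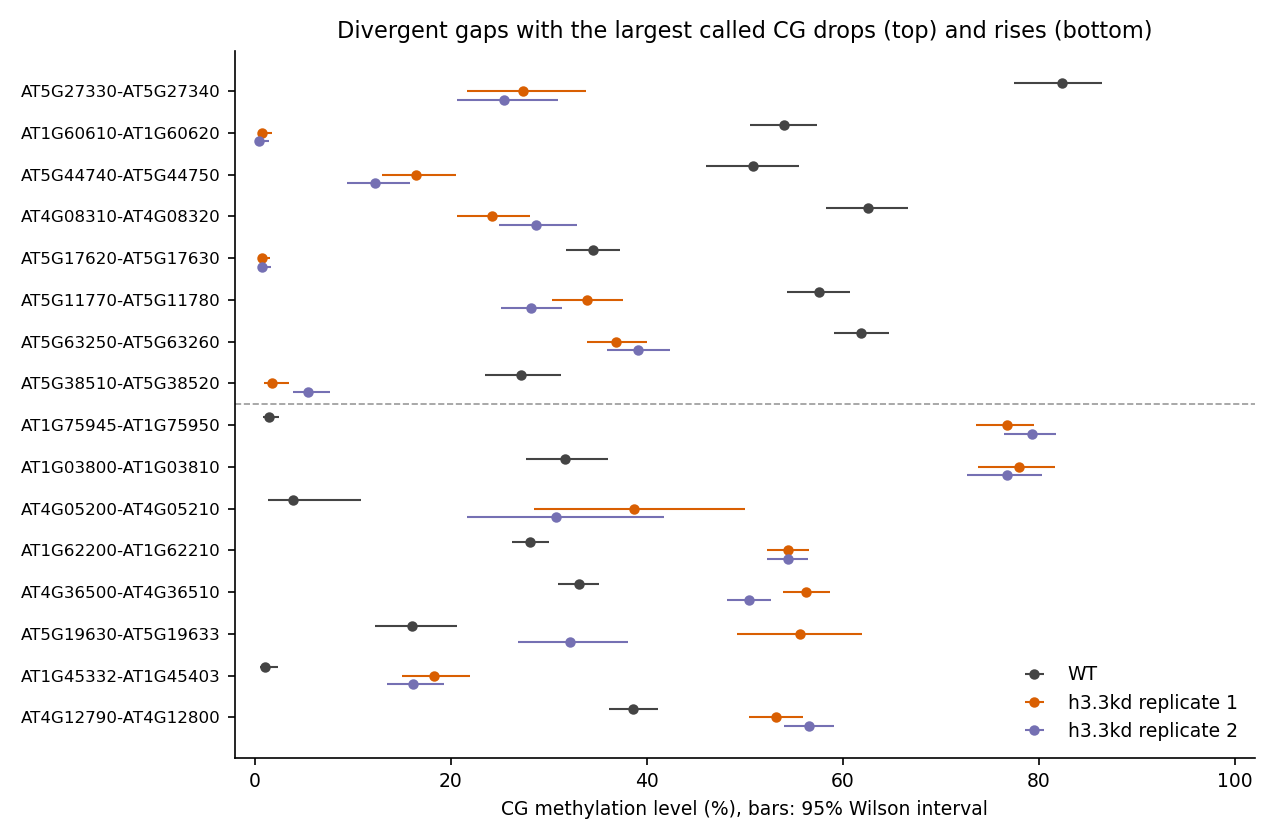
CG level (%, x axis) of the 8 divergent gaps with the largest called drops (above the dashed line) and the 8 with the largest called rises (below) for WT and both h3.3kd libraries. Points are pooled levels and bars are 95% Wilson intervals, which cover counting error only. WT stands apart from both h3.3kd libraries in every gap shown, as the rule by which the gaps were called required. The h3.3kd libraries are furthest from each other in AT5G19630-AT5G19633 (55.7% and 32.2%).

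Calls in the other contexts were fewer. In CHG, 23 of 3035 divergent gaps tested were lower (0.758%) and 8 higher (0.264%), against 0.444% lower and 0.319% higher over all gaps. Convergent gaps gave 4 lower (0.193%) and same-strand gaps 30 (0.387%). limma called 0 in either direction. In CHH, 2 of 3230 divergent gaps were lower (0.0619%) and 0 higher, against 0.0142% lower and 0.00711% higher over all gaps. Convergent and same-strand gaps gave 0 lower, so the share of lower gaps over all gaps comes from the same 2 gaps. limma called 2 lower and 0 higher, with a spread that again came from the h3.3kd libraries alone.

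Some gaps were called in CHG or CHH and not in CG. In AT3G27580-AT3G27590 (264 bp, chromosome 3), between the protein kinase gene ATPK7 and a reverse transcriptase gene, CHG was 29.0% in WT, 1.31% in replicate 1 and 2.11% in replicate 2. CHH was 12.9%, 1.13% and 1.32%, called lower, and CG was 3.62%, 0.41% and 0.55%. The CHH difference of -11.7 points was -6.04 with cytosines weighted alike and -1.18 without the outer 50 bp of the gap, where it no longer met the 10-point rule. The first 500 bp of the reverse transcriptase gene were at 36.2% CG in WT and 1.15% and 2.47% in h3.3kd. In AT3G26616-AT3G26618 (89 bp), upstream of the release factor gene ERF1-3, CHH was called lower, with 40.9% in WT and 28.6% and 28.7% in h3.3kd, while CG was 92.7%, 92.8% and 91.8%.

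Among the largest CHG rises, AT1G34140-AT1G34150, beside the poly(A)-binding protein gene PAB1, had 15.5% CHG in WT and 36.6% and 32.1% in h3.3kd, with CG at 29.4%, 31.6% and 29.3%. AT3G20920-AT3G20930, between a translocation protein-like gene and a gene for an RNA-binding protein, had 4.49% CHG in WT and 23.99% and 21.04% in h3.3kd, with CG at 53.4%, 59.5% and 54.1%. The third largest CHG drop was in AT3G18470-AT3G18480, upstream of CASP, with 33.1% in WT and 3.37% and 5.90% in h3.3kd.

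On a finer scale, the same test with a threshold of 20 points was applied to 100-bp tiles read with a minimum of 20 CG calls. Among 16235 such tiles wholly inside divergent gaps, 114 (0.702%) were called lower and 69 (0.425%) higher, against 2.59% lower and 1.19% higher over the whole genome. Only tiles with methylation can lose it. Among tiles at 20% or more in WT, 5.84% of 1953 in divergent gaps were lower, 8.72% in convergent gaps, 5.92% in same-strand gaps and 8.43% over the genome. The 114 lower tiles came from 82 gaps and had mean levels of 66.5% in WT and 18.7% and 18.9% in h3.3kd, and 59.6% of them lay in gaps that were not called as a whole. The 69 higher tiles came from 53 gaps, and 37 of them were under 5% in WT.

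Of the 6 gaps beside genes of H3.3 or DNA methylation, 0 were called in CG, where 0.985% of divergent gaps were called lower and 0.394% higher, so that 6 gaps are too few to set against that share. Of the H3.3 genes, HTR5 has a divergent gap among the members, AT4G40040-AT4G40042 (151 bp, chromosome 4), shared with the gene of the 12 kDa subunit of microsomal signal peptidase. Its CG level was 0.53% in WT, 0.34% in replicate 1 and 0.26% in replicate 2, and its CHG and CHH levels were at most 0.98%. The depth of this gap relative to its library was 2.21 times that of WT in replicate 1 and 1.86 times in replicate 2. Over 3221 divergent gaps read with 200 calls or more in each library, the median ratios were 0.94 and 0.98, and 0 gaps in replicate 1 and 2 gaps in replicate 2 had a higher ratio. The transgene of the h3.3kd lines carries an HTR5 promoter, and its part in this depth was not tested.

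The other 5 gaps lie beside genes of DNA methylation. CG was at most 1.32% in every library upstream of CMT2, a CHH methyltransferase, of SUVH4, a histone H3 lysine 9 methyltransferase that works with CMT3, of IBM1, a lysine 9 demethylase that guards genes against CHG methylation, and of SHH1, a reader that brings RNA polymerase IV to its targets. The gap upstream of SUVH5, a relative of SUVH4, was methylated at 78.9% in WT and at 78.6% and 82.6% in h3.3kd. No gene for linker histone H1 had a gap among the members. The gap between the light-harvesting chlorophyll genes CAB2 and CAB1 (1915 bp, chromosome 1) was at 1.07% CG in WT and 0.73% in both h3.3kd libraries.

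Gene groups were compared by counts of called gaps and median differences in CG. The groups were chosen with earlier results of these data known. Of the 95 tested gaps beside genes for ribosomal proteins, 1 was lower and 0 higher, with a median difference of -0.056 points. Gaps beside core histone genes gave 1 lower and 0 higher of 19, those beside kinase genes 2 lower and 3 higher of 274, and those beside transcription factor genes 2 lower and 0 higher of 243. F-box and pentatricopeptide repeat genes each gave 1 lower and 0 higher, of 143 and 80. Heat shock protein genes gave 0 lower and 1 higher of 38 (the HSP90 pair), light-harvesting and photosystem genes 0 lower and 1 higher of 19 (the PSAL gap), and RNA helicase genes 0 lower and 1 higher of 17. Gaps beside NBS-LRR receptor, cytochrome P450 and aminoacyl-tRNA synthetase genes had none called, of 16, 23 and 24. The median difference of each of the groups counted here lay between -0.31 and 0.12 points, beside a median of 0 over all 3046 tested divergent gaps, with 30 lower and 12 higher.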

How the data were processed

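Genomic DNA of mature leaves was bisulfite-sequenced from 1 WT and 2 h3.3kd samples, grouped by the genotype and replicate in their labels. Deposited values are counts of C and T reads per cytosine and library, not normalized by the authors. Per the study's methods, identical reads were collapsed and reads were mapped to TAIR10 with BS Seeker; mapping settings were not stated. Positions were checked against the TAIR10.1 assembly, with 0 off a cytosine and at most 2 in another context per library. Between 1.23% and 1.25% of cytosines stood on 2 lines, whose counts were summed. The study's methods call the h3.3kd samples biological replicates.

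Gaps and genes come from the RefSeq annotation of TAIR10.1, which is also the source of the sequences and protein names. C and T counts were summed per gap and context with Python 3.11.15 (numpy, numba), and levels are C/(C + T). Two-sided Fisher's exact tests with Benjamini-Hochberg adjustment ran over 12633 gaps in CG, 12850 in CHG and 14056 in CHH, with at least 50 calls in every library, and over 928013 tiles of 100 bp. limma was fitted to log2((C + 0.5)/(T + 0.5)) with precision weights, which were added because the planned fit without them recovered none of the changes when tested on simulated data.

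Named gaps are the 8 largest called drops and rises in CG and the 3 largest in CHG, ranked by the smaller difference, and gaps beside genes of H3.3, H1 and DNA methylation and the CAB2-CAB1 pair. The 2 gaps called in CHH and the gaps at the threshold were added. The gaps, gene lists and tests were chosen with earlier results of these data known. The methylation classes, the distance bins, the 20-point rule for single CG dinucleotides, the comparison of weightings over genes and bins and the choice of printed sequences were made after seeing the data.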

Additional observations from a re-analysis of the deposited data

How the results depend on the processing

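No paired analysis was possible because the series has 1 WT library, which shares a replicate number with only 1 h3.3kd library. The pooled differences depended on the weighting. With cytosines weighted alike they were -0.2125 points in CG, -0.1496 in CHG and -0.02744 in CHH, and with gaps weighted alike -0.3963 in CG and -0.2242 in CHG. In gaps with pooled CHG under 5% they were -0.1811 in CG and -0.01811 in CHG, and the CHH difference turned to 0.01207. This filter uses the CHG level of all 3 libraries, so it limits the CHG difference itself. In gaps of up to 1000 bp the CG difference was -1.068. Leaving out a h3.3kd library gave -1.441 to -1.274 in CG, -0.7443 to -0.5148 in CHG and -0.1679 to -0.07896 in CHH. Causes were not tested.

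Counts of calls moved with the threshold. At 20 points, 10 gaps were lower and 4 higher in CG, 6 lower and 1 higher in CHG and 0 lower in CHH, and 9 differed between the h3.3kd libraries. Among gaps with pooled CHG under 5%, 9 were lower and 4 higher in CG and 0 in CHG in either direction, with 0 lower in CHH. That filter takes the CHG level over all 3 libraries. At similar depth, a 10-point CHG rise in both h3.3kd libraries lifts a gap above 5%, and few drops could pass. The CHG counts under this filter were thus largely set by it and are not a result. limma called 0 lower and 0 higher in CG and in CHG. Without the outer 50 bp, 1 gap was lower in CHH. At 40 points, 59 tiles were lower and 31 higher. With a single h3.3kd library, where 1 comparison has to pass in place of 2, 39 to 60 gaps were lower and 20 to 26 higher in CG, 30 to 36 lower and 11 higher in CHG, and 154 to 208 tiles lower and 107 to 142 higher. Shares over all gaps and tiles were not counted for a single library, so these counts show the dependence on the rule only. The 10-point rule applied also to means over cytosines, added after seeing the data, left 22 lower and 11 higher in CG and 16 lower and 8 higher in CHG.

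Of 138 alternative values for the named gaps, 103 stayed within the spread of the h3.3kd libraries or their interval and 35 moved. The sign differed in 6 of the 138, all in 4 gaps that were not called, those beside SHH1, SUVH5, IBM1 and SUVH4, and in 0 of the called gaps. Called gaps had been chosen for the same direction in both h3.3kd libraries, so leaving out a library could not change their sign. AT4G24330-AT4G24340, called but not among the named gaps, did not keep the same direction in both libraries with cytosines weighted alike. With 1 WT library the spread between WT plants is unknown, so no value here separates the effect of H3.3 from differences between plants or lines. Gaps with under 50 calls were not tested, and the 10-point rule leaves out smaller differences whatever their depth.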
